A study of Mus musculus with 8 samples.

Results

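The Wnt signalling genes were examined as a set of 50 genes of the mouse, among 26180 genes with a curated RefSeq transcript. The genes were taken by name and not by any measured value. They comprised 19 Wnt ligands, 12 receptors (10 Frizzled genes and the co-receptors Lrp5 and Lrp6), 12 intracellular parts, the 4 Dkk genes, and 3 genes that act on ligands or receptors (Wls, Rnf43 and Znrf3). Each gene was asked for peaks of the acetyltransferase MOF, of the transcription factor Rfx2, and of the histone marks H3K4me3 and H3K27ac, at its promoter and in its body. H3K4me3 sits at active or poised promoters, and H3K27ac at active promoters and enhancers. The promoter window of a gene covered 1 kb before and 100 bp after each of its transcription start sites (TSS), and a peak counted there if it overlapped that window by at least 1 bp.

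Every library was made from total epidermis of the back skin of Wildtype mice at postnatal day 0.5 (P0.5), with no treatment, no mutant and no strain named in the labels. Total epidermis is a mixture that holds basal and differentiating keratinocytes, hair follicle cells, melanocytes and immune cells, so a peak cannot be assigned to a cell type, and a mark in fewer cells cannot be told apart from a weaker mark in all of them. MOF was mapped by ChIPseq, and Rfx2, H3K4me3 and H3K27ac by Cut&Run. The study comprised 8 samples, and 1 peak list per antibody was used here, so there is no replicate error and no test between libraries. The lists held 27039 H3K4me3, 30736 H3K27ac, 17546 MOF and 337 Rfx2 peaks and gave no read counts, so no value below carries its depth. The MOF list is longer than the MOF call described in the study's methods, and every MOF share rests on it. Its regions are broad calls that enclose narrower inner blocks, and MOF widths and covered bases below are those of the whole regions, with a median of 562 bp against 242 bp for the blocks. The labels leave unclear which of the 2 H3K4me3 libraries its list came from. Of 10 keratinocyte marker genes, 5 carried H3K4me3 at the promoter (Krt5, Krt14, Krt15, Trp63 and Col17a1), whereas the differentiation genes Krt1, Krt10, Lor and Ivl carried none of the peaks. Markers of other cells carried H3K4me3 at 3 of 8 genes for fibroblasts, 4 of 8 for melanocytes, 1 of 4 for endothelial cells and 0 of 6 for immune cells. The share over all genes was 54.0%, so H3K4me3 at these few markers does not set the keratinocyte genes apart from genes in general. Their part in the results below was not tested.

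Wnt ligands are secreted, lipid-modified proteins that need the carrier Wls to leave the cell. A ligand that binds a Frizzled receptor together with Lrp5 or Lrp6 recruits Dishevelled, which stops the destruction complex of Axin, Apc and Gsk3b from degrading β-catenin. β-catenin, encoded by Ctnnb1, then acts with the Tcf/Lef factors on target genes. Rnf43 and Znrf3 remove Frizzled from the cell surface, and secreted Dkk proteins such as Dkk1 act on the Lrp co-receptors, whereas Dkk3 is a divergent member of that family. In skin the pathway is known for the induction of hair follicles and the upkeep of basal keratinocytes.

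Sequences of 5 promoters are shown because they span the patterns found below, from a promoter with all 3 of MOF, H3K4me3 and H3K27ac to one with none. Each run is the 250 bases before the most upstream TSS, 5′ to 3′ on the sense strand, from the RefSeq promoter table of GRCm38.p6, with CG dinucleotides in capitals. Of the 50 genes, 35 had an entry in that table. Wls (chr3:159839400-159839649, + strand, 8 CG) carried MOF with both marks, Wnt4 (chr4:137277385-137277634, + strand, 44 CG) both marks without MOF, Axin2 (chr11:108920099-108920348, + strand, 24 CG) H3K27ac alone, Wnt8b (chr19:44493222-44493471, + strand, 5 CG) MOF alone, and Dkk2 (chr3:132085042-132085291, + strand, 7 CG) no peak. These states are those of the whole promoter window. Within the stretch shown, peaks of MOF, H3K4me3 and H3K27ac covered 234, 186 and 211 bases at Wls, MOF covered 250 bases at Wnt8b, and H3K27ac covered 42 bases at Wnt4 and 165 at Axin2, while H3K4me3 of Wnt4 lay outside it.
Wls: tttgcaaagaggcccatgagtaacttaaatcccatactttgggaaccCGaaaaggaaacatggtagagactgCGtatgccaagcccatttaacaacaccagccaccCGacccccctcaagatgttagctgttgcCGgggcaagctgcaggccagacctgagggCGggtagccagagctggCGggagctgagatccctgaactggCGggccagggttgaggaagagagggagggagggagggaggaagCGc
Wnt4: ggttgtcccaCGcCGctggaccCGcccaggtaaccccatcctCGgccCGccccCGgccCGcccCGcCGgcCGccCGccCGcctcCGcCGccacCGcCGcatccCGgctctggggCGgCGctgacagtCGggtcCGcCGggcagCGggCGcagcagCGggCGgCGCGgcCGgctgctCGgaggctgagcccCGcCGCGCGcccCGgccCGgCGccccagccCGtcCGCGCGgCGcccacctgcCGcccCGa
Axin2: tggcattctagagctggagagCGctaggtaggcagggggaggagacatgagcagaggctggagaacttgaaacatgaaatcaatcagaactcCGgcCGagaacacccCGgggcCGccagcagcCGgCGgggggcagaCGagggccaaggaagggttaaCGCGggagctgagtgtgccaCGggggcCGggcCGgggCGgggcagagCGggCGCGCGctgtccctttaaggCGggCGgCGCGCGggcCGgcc
Wnt8b: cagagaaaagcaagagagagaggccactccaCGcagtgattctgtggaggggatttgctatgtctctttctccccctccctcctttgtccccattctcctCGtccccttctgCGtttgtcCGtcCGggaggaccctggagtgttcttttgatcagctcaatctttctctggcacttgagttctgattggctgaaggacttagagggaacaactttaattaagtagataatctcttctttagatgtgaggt
Dkk2: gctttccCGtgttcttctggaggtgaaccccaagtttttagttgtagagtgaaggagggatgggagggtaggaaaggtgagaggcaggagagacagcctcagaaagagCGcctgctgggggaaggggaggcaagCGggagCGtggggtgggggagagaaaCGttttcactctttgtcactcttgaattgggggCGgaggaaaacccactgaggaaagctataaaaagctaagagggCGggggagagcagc

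Wnt pathway promoters carried the histone marks of active promoters more often than genes in general, and the share with MOF was close to that of all genes with all MOF peaks and RefSeq starts. Among promoters rich in CpG (observed over expected above 0.6) the shares in this window were below those of all genes. H3K4me3 was at 83.9% against 94.3% and H3K27ac at 74.2% against 82.7%. The 5 such Wnt genes without H3K4me3 were Axin2, Ctnnb1, Lrp5, Lrp6 and Wnt9a. All of them gained it with a window of 500 bp on either side, so the H3K4me3 gap rests on the window. H3K4me3 was found at 40 of 50 promoters (80.0%, exact 95% interval 66.3% to 90.0%), against 54.0% of all genes. H3K27ac was found at 34 (68.0%, 53.3% to 80.5%), against 44.1%. With the stronger 50% of peaks, H3K4me3 was at 29 (58.0%, against 45.3%) and H3K27ac at 23 (46.0%, against 36.7%). MOF was found at 12 (24.0%, 13.1% to 38.2%), against 23.7%. With only the 50% of MOF peaks of higher score it was at 3 (6.0%), against 14.5%, and with GENCODE vM21 transcripts at 13 (26.0%), against 14.1% of a larger set of 55341 genes. Rfx2 was at 0 of 50, where 3 counts would be 6.0% and the exact upper limit is 7.11%, against 1.21%. All intervals cover counting error over genes only. Among protein-coding genes alone, the shares were 60.7% for H3K4me3, 50.1% for H3K27ac and 26.6% for MOF.

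MOF was scarcer where the comparison was held to promoters with H3K4me3. Of the 40 Wnt pathway promoters with H3K4me3, 8 also held MOF (20.0%, 9.05% to 35.6%), whereas 42.0% of all promoters with H3K4me3 did. H3K27ac did not show that gap, with 30 of 40 (75.0%, 58.8% to 87.3%) against 79.8%. The commonest state was H3K4me3 with H3K27ac and without MOF, at 23 genes (46.0%, against 22.0% of all genes), among them 9 ligands, the receptors Fzd1, Fzd2, Fzd3, Fzd5, Fzd6, Fzd8 and Fzd10, and 7 intracellular parts. MOF and both marks were at 7 genes (14.0%, against 21.0%): Fzd7, Apc, Gsk3b, Tcf7l1, Wls, Rnf43 and Znrf3. H3K4me3 alone was at 9 genes (18.0%, against 9.27%), and none of these 3 was at 4 (8.0%, against 44.1%): Wnt1, Wnt9a, Dkk1 and Dkk2. MOF without H3K4me3 was rare over all genes (0.997%) and was found at 4 of the 50 (8.0%): Wnt8a, Wnt8b, Lrp5 and Ctnnb1. With a window of 500 bp on either side it was at 2 (4.0%, against 0.985%), Wnt8a and Wnt8b.

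**Figure D1:**
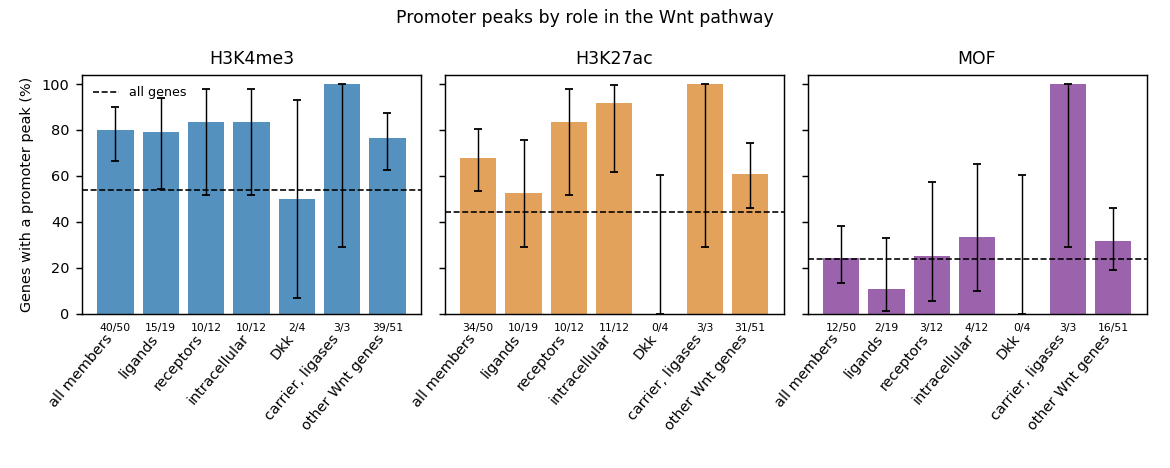
Share of genes with a promoter peak (y axis, percent) of H3K4me3, H3K27ac or MOF, by role in the pathway (x axis). Bars give the share, the numbers under them the genes with a peak out of the genes in the group, error bars the exact 95% interval, and the dashed line all 26180 genes; the last bar is a list of 51 other Wnt pathway genes. H3K4me3 stood above the line for all 50 members (80.0%), MOF on it (24.0%), and the Dkk genes had no H3K27ac and no MOF peak.

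The ligands had the lowest share with MOF among the 3 main roles. H3K4me3 was at 15 of 19 ligand promoters (78.9%, 54.4% to 93.9%), at 10 of 12 receptor promoters (83.3%, 51.6% to 97.9%) and at 10 of 12 promoters of intracellular parts (83.3%, 51.6% to 97.9%). H3K27ac was at 10 of 19 ligands (52.6%, 28.9% to 75.6%), 10 of 12 receptors (83.3%, 51.6% to 97.9%) and 11 of 12 intracellular parts (91.7%, 61.5% to 99.8%). MOF was at 2 of 19 ligands (10.5%, 1.3% to 33.1%), 3 of 12 receptors (25.0%, 5.49% to 57.2%) and 4 of 12 intracellular parts (33.3%, 9.92% to 65.1%). The intervals of the 3 roles overlapped for each list, so the roles were not shown to differ. Over all genes the shares were 54.0% for H3K4me3, 44.1% for H3K27ac and 23.7% for MOF. That MOF share lay within the interval of each of the 3 roles. None of the 15 ligand promoters with H3K4me3 held MOF, where 3 counts would be 20.0% and the exact upper limit is 21.8%. Of all promoters with H3K4me3, 42.0% held MOF. With the window widened to 2.5 kb on either side of the TSS, 4 ligands had MOF (21.1%, against 27.8% of all genes), Wnt5a and Wnt7b being the added genes.

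**Figure D2:**
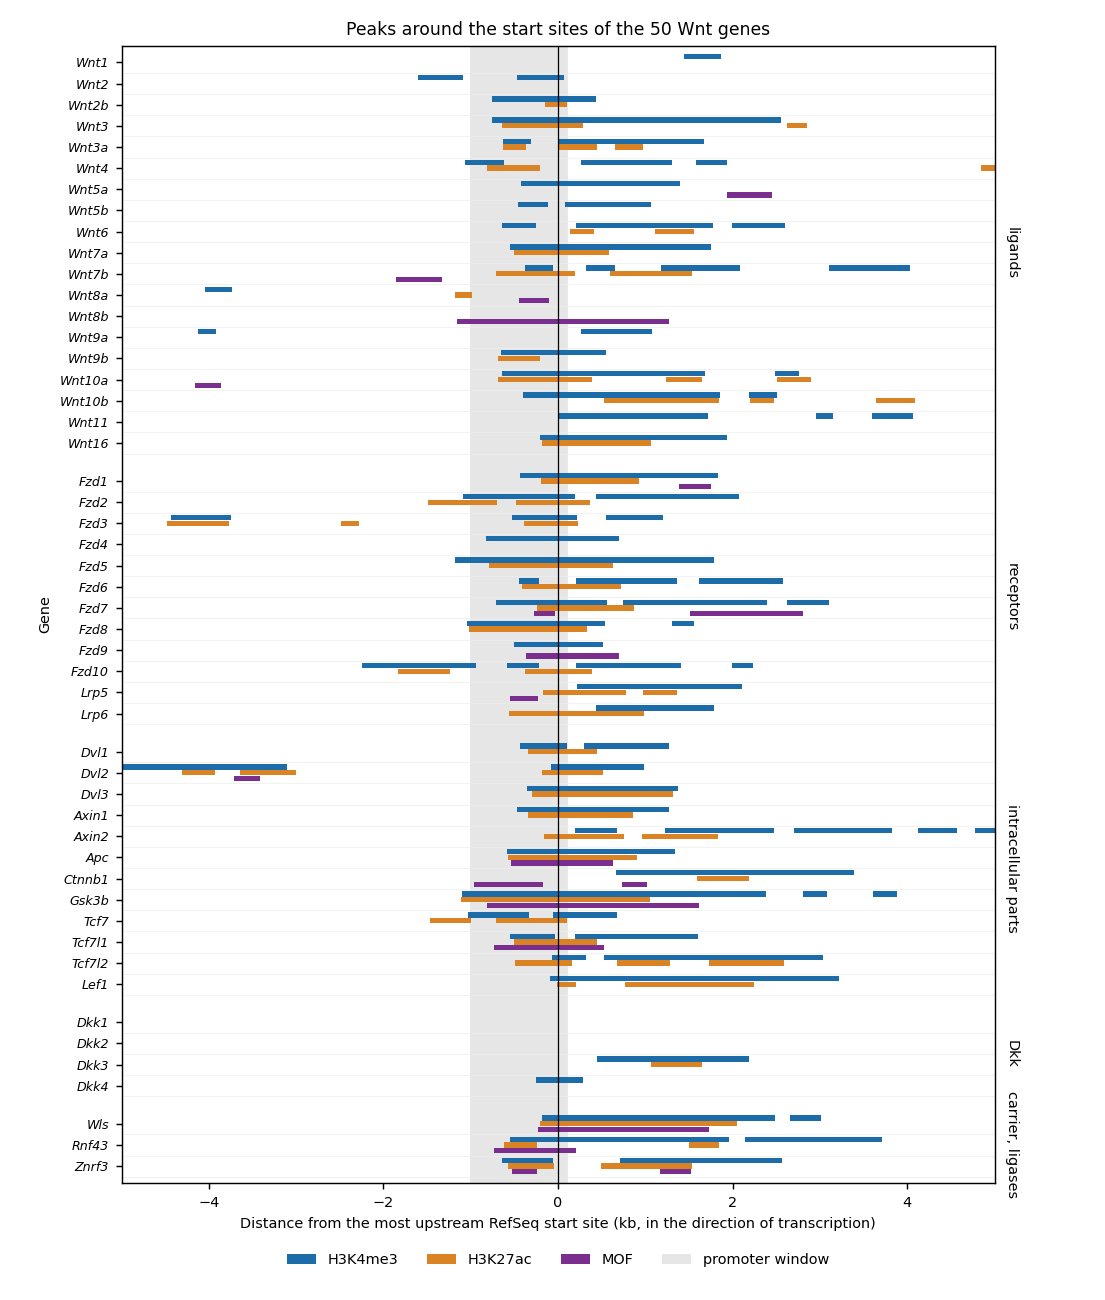
Peaks of H3K4me3 (blue), H3K27ac (orange) and MOF (purple) within 5 kb of the most upstream TSS of each of the 50 genes (y axis, grouped by role), drawn to scale along the direction of transcription (x axis, kb). The grey band is the promoter window of that TSS. H3K4me3 at Axin2, Lrp5, Lrp6, Wnt9a and Ctnnb1 starts to the right of the band, and Wnt8b has a MOF bar with no mark.

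Among the ligands, 9 carried both marks: Wnt2b, Wnt3, Wnt3a, Wnt4, Wnt7a, Wnt7b, Wnt9b, Wnt10a and Wnt16. Wnt10a, a ligand known from hair follicles and teeth, had an H3K4me3 peak of 2326 bp with a fold enrichment of 4.81 over local background, as the authors' peak caller gave it. Its H3K27ac peak was 1085 bp wide with a fold enrichment of 2.78, in the lowest percent of H3K27ac promoter peaks (percentile 0.597). Wnt3, Wnt4 and Wnt10a all lay below the first percentile of H3K27ac fold enrichment, Wnt3 at 0.874 and Wnt4 at 0.294. The peaks of both marks at Wnt7b also covered the start of AU022754, 413 bp away, and cannot be assigned to Wnt7b alone. Wnt16 had the highest H3K27ac −log10 q-value of the ligand promoter peaks, 15.5, with a fold enrichment of 5.0.

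Another 6 ligands carried H3K4me3 alone: Wnt2, Wnt5a, Wnt5b, Wnt6, Wnt10b and Wnt11. Wnt5a and Wnt11 are best known for signalling that does not use β-catenin. For Wnt6 and Wnt10b the H3K27ac peak began just past the window, 135 bp and 530 bp downstream of the TSS. Wnt5a and Wnt2 were far from any H3K27ac peak, 684 kb and 311 kb away. The H3K4me3 peak of Wnt5a was 1820 bp wide (fold enrichment 3.9) and that of Wnt2 was 544 bp (6.14).

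Wnt8a and Wnt8b, ligands known from the early embryo and the developing brain, were the only ligands with a promoter MOF peak, and neither had H3K4me3. The MOF peak of Wnt8b was 2430 bp wide (chr19:44492311-44494740), in the 97.6th percentile of width among MOF promoter peaks, though its inner block spanned 282 bp, with a score of 346 (percentile 3.78). No H3K4me3 peak lay within 51.9 kb and no H3K27ac peak within 42.6 kb of its TSS. At Wnt8a the MOF peak was 345 bp wide with a score of 405 (percentile 9.91), and an H3K27ac peak of 200 bp reached only the upstream edge of the window. The score of MOF peaks is that of the authors' file, its scale was not stated, and neither ligand remained among MOF-bound promoters when the 50% of MOF peaks with the lower scores were left out.

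Of the ligands without any promoter peak, Wnt9a had H3K4me3 from 265 bp and Wnt1 from 1442 bp downstream of the TSS. Wnt1, the neural founding member of the family, had 422 bp of H3K4me3 (fold enrichment 4.66) in its first 2.5 kb and no H3K27ac peak nearer than 12.2 kb.

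Several ligand genes are neighbours, and the partners differed in their marks in the promoter window in all pairs but Wnt3 and Wnt9b. Wnt6 and Wnt10a lie 6.7 kb apart on chromosome 1 and Wnt1 and Wnt10b 11.7 kb apart on chromosome 15. Wnt6 lacked the H3K27ac of Wnt10a in this window, but gained it with a window of 500 bp on either side, so that difference rests on the window. Wnt10b had an H3K4me3 peak of 2251 bp (fold enrichment 5.22) at its promoter where Wnt1 had none. Wnt3 and Wnt9b, 24.4 kb apart on chromosome 11, both had both marks, with H3K4me3 peaks of 3314 bp (fold enrichment 3.32) and 1204 bp (8.75). Wnt3a and Wnt9a, 16.2 kb apart on the same chromosome, differed, Wnt3a having both marks and Wnt9a neither in the window.

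All 10 Frizzled promoters carried H3K4me3 (against 54.0% of all genes), and 8 carried H3K27ac (against 44.1%). All but Fzd2 (CpG ratio 0.531) were rich in CpG, and over all such promoters the shares were 94.3% and 82.7%. Fzd4, a receptor known for vessel growth in the retina, and Fzd9 were the exceptions for H3K27ac. The nearest H3K27ac peak was 59.6 kb from the TSS of Fzd4 and 13.0 kb from that of Fzd9. The H3K4me3 peak of Fzd4 (1523 bp, fold enrichment 9.84, the highest of the receptors) also covered the start of the divergent gene Tmem135, 144 bp away, so it cannot be assigned to Fzd4. The same holds for the H3K4me3 and H3K27ac peaks of Fzd10, which covered the start of Fzd10os (419 bp away). Fzd5 had the widest H3K4me3 promoter peak of the family, 2970 bp, and the others ranged from 226 bp (Fzd6) to 2269 bp (Fzd1). Fzd6 had a wider peak outside the window (1156 bp, fold enrichment 6.7), which began 208 bp downstream of its first TSS. H3K27ac had its highest fold enrichment in the family at Fzd1, 8.01 (percentile 72.1).

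MOF was at Fzd7 and Fzd9. The MOF peak of Fzd9 covered 1066 bp (chr5:135250347-135251412) with a score of 823 (percentile 68.9), overlapping an H3K4me3 peak of 1017 bp. At Fzd7 it was 249 bp wide with a score of 453 (percentile 17.2), and a second MOF peak of 1303 bp was centred 2159 bp downstream of the TSS, overlapping H3K4me3. Fzd1 had a MOF peak (367 bp, score 606) from 1386 bp downstream of its TSS. In the gene bodies beyond the promoter, which are short in most Frizzled genes, H3K27ac was at 0 of 10 (exact upper limit 30.8%, against 20.2% of all genes) and H3K4me3 at 6 of 10 (against 19.8%). These H3K4me3 peaks had their summits 593 bp to 2911 bp from a TSS of the same gene, so the count does not separate body from promoter signal.

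The co-receptors Lrp5 and Lrp6 had H3K27ac but no H3K4me3 in the promoter window. Their H3K4me3 peaks began 213 bp (Lrp5) and 432 bp (Lrp6) downstream of the TSS, and were 1900 bp and 1358 bp wide. Lrp5 also had MOF upstream of the TSS (chr19:3686795-3687118, score 375, percentile 7.25), whereas the nearest MOF peak to the TSS of Lrp6 was 38.0 kb away. Such a shift downstream was also seen at Axin2 (197 bp), Wnt9a and Ctnnb1 (486 bp from its nearer TSS). With a window of 500 bp on either side, all 5 of these genes had H3K4me3.

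H3K4me3 was therefore also read as the bases covered within 2.5 kb of the most upstream TSS. By that measure 46 of 50 genes had H3K4me3 (92.0%), against 57.0% of all genes, and Wnt8a, Wnt8b, Dkk1 and Dkk2 did not. The covered length had a median of 1840 bp in the Wnt genes and 1413 bp in all genes with H3K4me3 there. It was above the 90th percentile for 17 of the 46. Receptors had a median of 2084 bp, ligands 1820 bp and intracellular parts 1792 bp. Gsk3b (3484 bp), Wnt3 (3256 bp) and Fzd10 (3120 bp) covered the most.

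**Figure D3:**
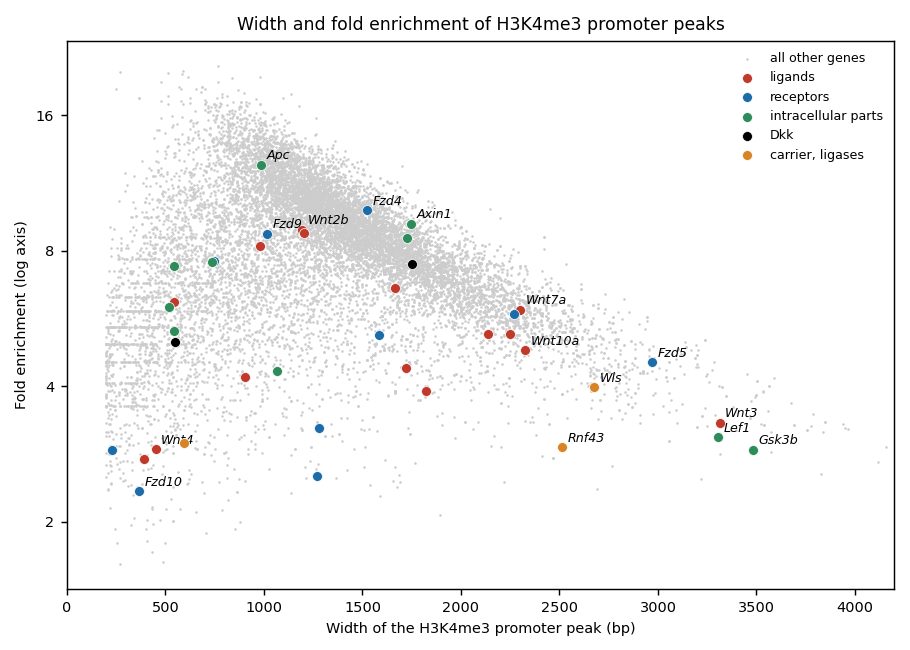
Width (x axis, bp) and fold enrichment (y axis, log scale) of the H3K4me3 promoter peak of each gene, as given by the authors' peak caller. Grey points are all other genes with H3K4me3 at the promoter, and coloured points are the 40 Wnt pathway genes by role. Gsk3b, Wnt3, Lef1 and Fzd5 lie at the right end at low fold enrichment, and Apc is the highest of the coloured points.

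More of the Wnt genes had a very wide H3K4me3 peak than genes in general, and their peaks had lower fold enrichment. The median width was 1274 bp against 1306 bp in all genes. A peak of 2000 bp or more was found at 11 of the 40 promoters with H3K4me3 (27.5%), against 12.4% of all promoters with H3K4me3. The median fold enrichment was 5.2 for the Wnt genes and 8.04 for all genes. It remained lower among narrow peaks, with 5.99 for the 29 Wnt genes with a peak under 2000 bp and 8.45 for all such genes. Wide peaks had a median of 4.52 in the Wnt genes and 5.7 in all genes. H3K27ac promoter peaks were lower as well, with a median fold enrichment of 4.83 against 6.72, and so were MOF scores, with medians of 494 and 656. Across all 14131 promoters with H3K4me3, width and fold enrichment had a Spearman rho of −0.206, and across the 40 Wnt promoters −0.0261. These describe genes within 1 library, which share its depth.

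Lef1 and Gsk3b carried the widest of these peaks among the intracellular parts, 3307 bp (fold enrichment 3.08) and 3484 bp (2.89). The 3 Dishevelled genes Dvl1, Dvl2 and Dvl3 had both marks and no MOF. Their H3K4me3 peaks were 541 bp, 1065 bp and 1727 bp wide with fold enrichments of 7.38, 4.33 and 8.54. At Dvl3 the peaks also covered the start of the divergent transcript Gm16618.

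The destruction complex differed within itself. Axin1, its scaffold, had strong marks and no promoter MOF, with an H3K4me3 fold enrichment of 9.18 and an H3K27ac fold enrichment of 9.59 (percentile 87.9). Axin2, the related scaffold that is itself a target of the pathway, had H3K27ac in the window (925 bp, fold enrichment 4.65) and 5 H3K4me3 peaks in its first 5 kb, with fold enrichments from 1.93 to 3.15. Gsk3b, the kinase that marks β-catenin for degradation, had a MOF region of 2433 bp around an inner block of 200 bp, with a score of 305 (percentile 2.05), and the peaks extended to the start of the divergent gene BC031361. Apc, the tumour suppressor of the complex, had MOF at the first of its 2 promoters, with a score of 840 (percentile 71.7). Its H3K4me3 and H3K27ac peaks at that promoter also covered the start of Gm10548, 788 bp away. Its other promoter had both marks and no MOF, and an H3K4me3 fold enrichment of 12.4 (percentile 92.7).

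Ctnnb1, which encodes β-catenin, had MOF at its promoter and no histone mark in the window. The MOF peak (chr9:120932438-120933232, 795 bp, score 535) ended upstream of the TSS. A second MOF peak of 288 bp with a score of 702 lay in an intron and overlapped H3K4me3, and 2 more lay farther into the gene without marks. H3K27ac began 1412 bp from the nearer TSS.

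All 4 Tcf/Lef genes (Tcf7, Tcf7l1, Tcf7l2 and Lef1) carried both marks, and MOF was at Tcf7l1 alone. Tcf7 had H3K4me3 of 738 bp (fold enrichment 7.54) and, over its first TSS, H3K27ac of 815 bp (3.33). Another H3K27ac peak of 469 bp (4.17) reached only the upstream edge of the window. Tcf7l1, mostly a repressor that is known from hair follicle stem cells, had a MOF peak of 1268 bp with a score of 552 (percentile 32.1). At Tcf7l2 and Lef1, the most upstream promoters were marked by both H3K4me3 and H3K27ac. The downstream start of Tcf7l2 carried only H3K4me3 (544 bp, fold enrichment 5.31), and the last start of Lef1 carried no peak.

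Wls, Rnf43 and Znrf3 each carried MOF, H3K4me3 and H3K27ac at the promoter. The MOF peak of Wls (chr3:159839416-159841374, 1959 bp) had the highest score of the 50 promoters, 1245 (percentile 92.3), and lay with 2675 bp of H3K4me3 (fold enrichment 3.98) and 2259 bp of H3K27ac (4.79, percentile 99.5 for width). The sequence shown for Wls holds 8 CG against 44 for Wnt4, which carried both marks without MOF. That pair runs against all genes with H3K4me3, where MOF was at 50.7% of promoters rich in CpG and 33.9% of the rest. Rnf43 and Znrf3 had MOF scores of 494 each (percentile 23.6). In both genes the downstream RefSeq start carried no peak.

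The Dkk genes carried the fewest peaks. H3K4me3 was at Dkk3 (1749 bp, fold enrichment 7.47) and Dkk4 (547 bp, fold enrichment 5.0), while H3K27ac and MOF were at 0 of 4 promoters. Over all genes the shares were 54.0% for H3K4me3, 44.1% for H3K27ac and 23.7% for MOF. With only 4 genes, the group was not shown to differ from genes in general. The H3K27ac peak nearest to Dkk3 began 276 bp from a TSS. Dkk1 and Dkk2, both secreted inhibitors, had their nearest H3K4me3 peak 517 kb and 511 kb away.

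The base composition of the promoters was also compared, as the ratio of CpG observed to that expected from the C and G content of the promoter window. It had a median of 0.659 in the Wnt genes and 0.388 in all genes, and exceeded 0.6 in 31 of 50 (62.0%) against 27.6%. The lowest 8 were Wnt8a (0.243), Wnt8b (0.267), the 4 Dkk genes (0.199 to 0.406), and also Wnt16 (0.34) and Wls (0.395), which carried both marks. Among promoters above 0.6, H3K4me3 was at 26 of 31 Wnt genes (83.9%) and 94.3% of all genes. The remaining 5 Wnt genes had it with a window of 500 bp on either side. Among promoters of 0.6 or less, it was at 14 of 19 Wnt genes (73.7%) and 38.6% of all genes. Of those above 0.6 with H3K4me3, MOF was at 6 of 26 Wnt genes (23.1%) and 50.7% of all genes. Among promoters of 0.6 or less with H3K4me3, MOF was at 2 of 14 Wnt genes (14.3%) and 33.9% of all genes.

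Tcf/Lef recognition letters (CTTTG followed by 2 bases that are each adenine or thymine, on either strand) were found in the promoter window of the first TSS of 26 of 50 genes (52.0%), against 56.3% of all genes. Dkk1 and Dkk4 had 5 matches each, the most of the 50, and neither had H3K27ac. Axin2 had 1. The X-box, which Rfx factors recognise, was searched on both strands and matched in the window of 1 gene, Wnt2 (2.0%, against 2.67%). The nearest Rfx2 peak to any of the 50 genes was 20.7 kb from Dvl2, and the median distance was 2339 kb.

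The bodies of the Wnt genes held more peaks than those of most genes. A gene-body peak had its centre within the gene and no overlap with the gene's promoter windows. H3K4me3 was found there in 29 of 50 genes (58.0%, against 19.8% of all genes), H3K27ac in 21 (42.0%, against 20.2%), MOF in 18 (36.0%, against 17.1%) and Rfx2 in 0 (against 0.183%). The Wnt genes were longer, with a median body of 24.4 kb against 13.2 kb. Per 10 kb of gene body, they held 0.308 H3K4me3, 0.366 H3K27ac and 0.128 MOF peaks, against 0.0796, 0.112 and 0.0619 in all genes. Among the 36 Wnt genes with a body over 10 kb, 63.9% had H3K4me3, 55.6% H3K27ac and 41.7% MOF there, against 29.0%, 30.4% and 27.3% of all such genes.

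**Figure D4:**
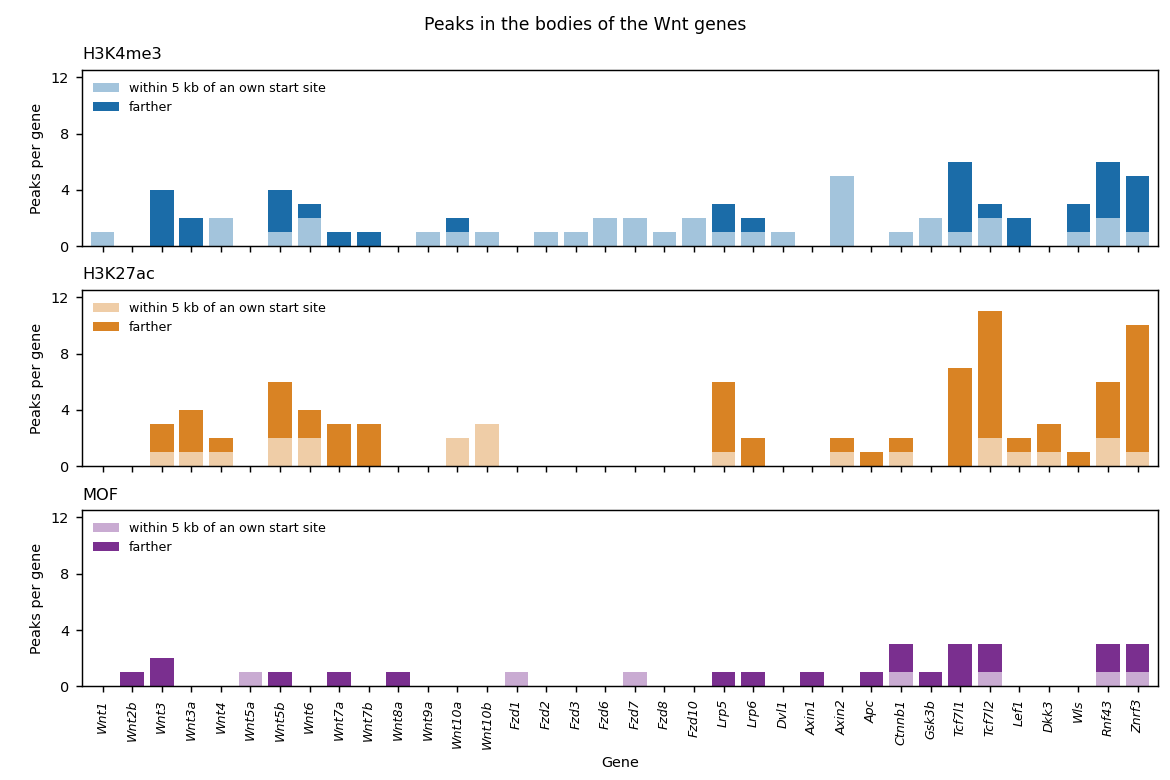
Number of H3K4me3, H3K27ac and MOF peaks in the body of each Wnt gene that had at least 1 (x axis, genes; y axis, peaks per gene). Pale bars are peaks within 5 kb of a start site of the same gene and full bars those farther away. Tcf7l2 and Znrf3, with bodies of 191 kb and 167 kb, held the most H3K27ac peaks, 11 and 10; counts are not scaled to body length.

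H3K27ac in gene bodies was concentrated in a few genes. The most were in Tcf7l2 (11 peaks in 191 kb), Znrf3 (10 in 167 kb) and Tcf7l1 (7 in 163 kb), followed by Lrp5, Rnf43 and Wnt5b with 6 each. Of those in Wnt5b, 2 lay at or within 1 kb of a start of Fbxl14 and cannot be assigned to Wnt5b. Of the 83 H3K27ac body peaks, 61 lay more than 5 kb from a start of the same gene, whereas 36 of the 70 H3K4me3 body peaks lay within 5 kb of one. Per 10 kb, Wnt10b (4.76) and Wnt6 (3.0) were densest, though their peaks lay in short bodies of 6.3 kb and 13.3 kb. Ligand bodies held 0.569 H3K27ac peaks per 10 kb, intracellular parts 0.276 and receptors 0.224.

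MOF peaks in gene bodies lay both with and without histone marks. Of all 29 MOF body peaks, 15 overlapped neither H3K4me3 nor H3K27ac. The 20 that lay more than 5 kb from every RefSeq TSS overlapped H3K27ac at 8 (40.0%) and H3K27ac with H3K4me3 at 4 (20.0%), where MOF peaks so placed in all genes did so at 15.4% and 9.16%. The 12 that overlapped no mark (60.0%, against 80.4%) included those in Axin1, Lrp6, Gsk3b and Apc, and a peak with a score of 842 in an exon of Wnt2b. Wnt5b held the body peak of highest score, 1487, but it covers the promoter of Fbxl14, a gene within Wnt5b on the other strand, and cannot be assigned to Wnt5b.

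The 4 peaks with both marks were intronic and lay in Rnf43 (2), Tcf7l1 and Wnt3. At Wnt3 the MOF peak (chr11:103794784-103795734, score 650) lay 21.1 kb from the TSS within H3K4me3 of 1369 bp (fold enrichment 8.75) and H3K27ac of 1134 bp (3.41). Neither RefSeq nor GENCODE lists a start within 1 kb of it. The H3K4me3 fold enrichment there was above that of the Wnt3 promoter peak (3.32), which was wider, and the −log10 q-value was below it (25.7 against 27.2). At Tcf7l1 the MOF peak was 1821 bp wide (chr6:72723132-72724952, score 458), 65.0 kb into the gene, with H3K27ac of 1537 bp (fold enrichment 7.16).

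Rnf43 held 3 intronic MOF peaks with both marks, centred at 26453 bp, 34232 bp and 62796 bp from its first TSS. The last had the highest score of them, 716 (chr11:87725653-87726113), with H3K4me3 of 1080 bp (fold enrichment 7.53) and H3K27ac of 1487 bp (5.86). These H3K4me3 fold enrichments, 7.41 at the first and 4.46 at the second site, exceeded that of the Rnf43 promoter, 2.93, whereas their −log10 q-values (17.6, 3.94 and 16.0) were below that of the promoter peak, 28.3. GENCODE vM21 lists an Rnf43 start within 1 kb of the H3K4me3 and H3K27ac peaks at the last site. Rnf43 also overlaps the gene 1110028F11Rik on the same strand. Tcf/Lef letters were in the central 300 bp of 3 of the 20 distal MOF peaks (15.0%, against 19.0% in all genes), and around the summits of 11 of 58 distal H3K27ac peaks (19.0%, against 21.1%).

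Other genes of the pathway were read from a list of 51 secreted inhibitors, further receptors, kinases, coactivators and planar polarity genes. H3K4me3 was at 39 promoters (76.5%, 62.5% to 87.2%), against 54.0% of all genes. H3K27ac was at 31 (60.8%), against 44.1%, and MOF at 16 (31.4%, 19.1% to 45.9%), against 23.7%. MOF was at 15 of the 39 with H3K4me3 (38.5%, 23.4% to 55.4%), near the 42.0% of all promoters with H3K4me3. This interval overlaps the 9.05% to 35.6% of the 50 genes, so the lists were not shown to differ. The highest MOF scores were at Btrc (1013), a ubiquitin ligase subunit that targets β-catenin, at Sostdc1 (992), a secreted Wnt and BMP inhibitor, and at the tankyrase gene Tnks (962). Rfx2 was at 2 of the 51 (against 1.21% of all genes), the casein kinase genes Csnk1d (fold enrichment 5.9) and Csnk1g1 (9.33), each with MOF and both marks.

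The ligands of the Hedgehog and Notch pathways were set beside those of the Wnt pathway. Of these 8 ligands, 5 carried H3K4me3, 3 carried H3K27ac and 1 carried MOF, the Notch ligand Jag1 with a score of 864. Over all genes the shares were 54.0%, 44.1% and 23.7%, so 8 ligands do not stand apart from genes in general. MOF was at 5 of 15 promoters of the Hedgehog pathway (33.3%, 11.8% to 61.6%) and at 9 of 22 of the Notch pathway (40.9%, 20.7% to 63.6%). Both intervals overlap that of the 50 Wnt genes and hold the 23.7% of all genes.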

How the data were processed

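Peaks came from newborn total epidermal cells. Per the labels and the study's methods, reads were aligned by the authors to mm10 with Bowtie2 and peaks were called on each library with MACS2. The deposited Rfx2, H3K4me3 and H3K27ac lists give for every peak a score, its fold enrichment (a ratio over local background), −log10 p-value and −log10 q-value. The deposited MOF list gives regions with a score of unstated scale and no fold enrichment, so MOF scores were ranked only within that list. It holds more regions than the study's methods state for MOF, so it may not be the final call. The H3K4me3 list is attached to the repeat library but named without the repeat mark, so which H3K4me3 library it came from is uncertain. H4K16Ac, H3K4me1 and the other H3K4me3 and H3K27ac libraries were not used here. Peak heights were not compared between lists.

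TSSs were those of curated RefSeq transcripts of GRCm38.p6, the assembly of mm10. Promoter shares carry Clopper-Pearson 95% intervals (scipy 1.17.1). Percentiles rank a promoter peak among the promoter peaks of all genes in the same list, and the strongest peak stands for a gene. A count of 0 allows 3 counts of the total. Overlap calls were tested on simulated data against bedtools 2.31.1 and differed at 0 of 31645 windows. The genes, lists and tests were chosen with earlier results of these data known. All 50 genes were named in the text. Of other Wnt genes, those with Rfx2 and the 3 with the highest MOF score were named, together with the marker genes on either side of the tissue label. Alternatives changed the promoter window, the overlap rule, the transcripts and the peaks kept.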

Additional observations from a re-analysis of the deposited data

How the results depend on the processing

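No paired analysis was possible because only 1 list of peaks per antibody was used. Of 120 counts recomputed under 11 alternative settings, 101 stayed within 1.5 times of the reported count and 19 did not. A peak centre inside the window gave 25 genes with H3K4me3 and 22 with H3K27ac, with 9 ligands and 6 intracellular parts for H3K4me3, and 5 receptors and 7 intracellular parts for H3K27ac. Over all genes, this rule gave 25.5% for H3K4me3 and 26.2% for H3K27ac. Keeping the stronger 50% of peaks of each list gave 9 ligands with H3K4me3 and 4 with H3K27ac (45.3% and 36.7% of all genes), and 3 genes with MOF (Wls, Fzd9 and Apc), of which 0 were ligands, 1 was a receptor and 1 an intracellular part; MOF over all genes was then 14.5%. In gene bodies, it gave 16 genes with H3K4me3 (32.0%, against 7.62% of all genes) and 9 with MOF (18.0%, against 9.13%). A window of 2.5 kb on either side gave 4 ligands with MOF (21.1%, against 27.8% of all genes). Extending genes by 50 kb on either side gave 45 genes with H3K4me3 (90.0%), 44 with H3K27ac (88.0%), 44 with MOF (88.0%) and 1 with Rfx2 (2.0%), against 73.3%, 69.4%, 68.0% and 3.8% of all genes. GENCODE vM21 transcripts and the inner blocks of MOF regions, choices made after seeing the data, moved no count beyond 1.5 times. By inner blocks, MOF was at all 12 promoters reported, against 20.6% of all genes, and at 20.0% of the Wnt promoters with H3K4me3, against 36.8% of all. The cause of these changes was not tested beyond the rule itself. With 1 list per antibody and no read counts, a missing peak says only that none was called there.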
